A study of Mus musculus with 2 samples.

Results

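The early response genes described here are 10 mouse genes, Egr1, Egr2, Egr3, Ier2, Ier3, Ier5, Myc, Nr4a1, Zfp36 and Btg2, out of 16593 genes with a named probe on the array. Every probe that the platform annotation assigns to one of these symbols was taken, which gave 11 of 25697 probes, a pair of them for Myc and 1 for each other gene. RNA was measured on 2 Illumina bead arrays, 1 per genotype. The Med1cKO array carried keratinocytes of Med1 fl/fl mice in which Cre recombinase, driven by the keratin 14 (Krt14) promoter, removed Med1, part of the Mediator complex that links transcription factors with RNA polymerase, and the CON array carried those of littermates with the same floxed alleles and no Cre, labelled C57BL6. Per the design text, each pool held skin cells of 3 mice, sorted as positive for integrin alpha6 and negative for CD34, although the treatment and extraction fields speak of RNA from whole skin. The sources used here do not state age or sex. With 1 pooled array per genotype there is no replicate error and no test, so every difference below is a difference between 2 pools.

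Early response genes are transcribed within minutes of a growth factor, a stress or mechanical disturbance, without new protein synthesis, mostly through serum response factor (Srf) and its partners downstream of MAP kinases, and their short-lived transcripts decay again soon after. The Egr proteins, Nr4a1 and Myc are transcription factors, the Ier proteins modulate stress and survival signalling, and Zfp36 and Btg2 act on messenger RNA decay and growth arrest. In skin these genes are known to respond to wounding and also to the enzymatic release of cells from tissue.

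In the table of RefSeq promoter windows (GRCm38.p6), 6 of the 10 genes had an entry. The 250 bases upstream of the annotated start are printed below for Ier3 and Egr2, which were bright on both arrays and differed by over 2-fold, and for Zfp36, which was bright and differed little. Capitals mark an NF-kB motif in Ier3, a CArG box (the binding motif of Srf) in Egr2, and a CArG box and an Egr motif (GCGNGGGCG) in Zfp36. The windows lie at chr17:35821463-35821712 on the plus strand (Ier3), chr10:67537619-67537868 on the plus strand (Egr2) and chr7:28379229-28379478 on the minus strand (Zfp36).
Ier3: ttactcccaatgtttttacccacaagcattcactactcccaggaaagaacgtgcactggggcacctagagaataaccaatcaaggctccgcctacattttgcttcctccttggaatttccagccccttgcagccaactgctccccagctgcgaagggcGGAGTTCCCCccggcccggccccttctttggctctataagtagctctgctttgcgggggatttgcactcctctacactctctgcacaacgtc
Egr2: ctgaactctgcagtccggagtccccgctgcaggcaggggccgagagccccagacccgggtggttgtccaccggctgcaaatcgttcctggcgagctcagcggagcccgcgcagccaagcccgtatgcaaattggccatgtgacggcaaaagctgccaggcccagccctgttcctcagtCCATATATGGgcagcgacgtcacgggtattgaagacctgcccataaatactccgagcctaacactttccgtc
Zfp36: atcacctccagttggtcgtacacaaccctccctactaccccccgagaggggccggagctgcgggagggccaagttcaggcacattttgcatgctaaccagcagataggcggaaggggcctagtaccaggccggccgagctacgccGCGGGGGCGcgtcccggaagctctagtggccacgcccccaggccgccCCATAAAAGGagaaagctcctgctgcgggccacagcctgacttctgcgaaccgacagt

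Both strands of the upstream windows were searched for 6 motifs. A gene was counted when any of its windows held the motif, while the shares of all windows are per window, so the 2 are unlike measures. Per window, the 6 genes had 10 windows. Of these, 5 held a CArG box, 3 an Egr motif, 2 an NF-kB motif and 1 a cAMP response element. A CArG box was found for 2 of the 6 genes, Egr2 and Zfp36, and in 1.47% of all 32851 windows in the table. It began 72 bases upstream of the start in the Egr2 window shown and 58 bases upstream in Zfp36. Of the 5 annotated starts of Egr2, 4 had a CArG box in their window, 3 of these windows overlapping and sharing the same box. The Egr motif GCGNGGGCG was found for Btg2, Nr4a1 and Zfp36 and in 4.70% of all windows. The cAMP response element TGACGTCA was found for Btg2 alone, at 166 bases upstream, and in 1.55% of all windows. An NF-kB motif was found for Ier3 and for the most upstream Egr2 window, and in 7.25% of all windows. Neither the AP-1 motif TGANTCA (6.75% of all windows) nor TATAAA (12.4%) was found in any of these 6 genes' windows. In the windows searched, no listed motif was shared by Ier3 and the Egr2 window shown. A match gives the letters of a motif in a window and does not show that a factor binds there.

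The median intensity was 191.17 on the Med1cKO array and 197.6 on the CON array, and 42.7% and 40.8% of their probes were detected. A probe was called detected when its detection p-value, the share of negative control features at least as bright on the same array, was below 0.01. The steps of these p-values correspond to 798 negative controls. The brightest Med1 probe had an intensity of 452 in the Med1cKO pool and 794 in the CON pool (log2 ratio -0.997 after background correction). Which exons were deleted is not stated in the sources used here, so this probe does not check the deletion. Of 6 basal keratinocyte markers, all were detected on both arrays, with a median log2 ratio of -0.16, and the summed intensity of their brightest probes was 119019 in Med1cKO and 133072 in CON. Cd34, the transcript of the protein that the sort selected against, was detected on both arrays. It had 279 in Med1cKO and 321 in CON (log2 ratio -0.31), where the lowest detected intensities were 219 and 239. Fibroblast markers differed in detection, with 5 of 7 detected in Med1cKO and 1 of 7 in CON and summed intensities of 12746 and 6946. Dcn, the matrix proteoglycan decorin, had 2297 in Med1cKO and 178 in CON, while Col1a2 and Pdgfra were detected on neither array. T cell markers, of which 5 of 6 had a probe, were detected for 4 genes in Med1cKO and 3 in CON, with summed intensities of 10962 and 7075. Thy1, which stands in both lists, made up 9092 of these sums in Med1cKO and 5975 in CON. Cd8a, another T cell marker, was detected on neither array. For Langerhans cell and myeloid markers the numbers detected were 4 and 3 of 7, and the summed intensities 3191 and 2207. Of these markers, Ptprc, Tyrobp and Itgam were detected on neither array. The erythroid gene Hba-a1 had 2231 in Med1cKO and 492 in CON, while Alas2, the other erythroid marker with a probe, was detected on neither array. Acta2, a smooth muscle actin, had 970 in Med1cKO and 495 in CON, while the other 3 muscle and mural markers were detected on neither array. Of 5 melanocyte and 5 endothelial markers, 1 each was detected, in Med1cKO only, and 0 of 3 adipocyte markers with a probe were. Early response genes are expressed in most cell types, the part of other cells in the differences below was not tested, and fewer cells of a type and less RNA per cell cannot be told apart in pooled RNA.

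Of the 10 genes, 4 were higher by 2-fold or more in the Med1cKO pool and 0 were lower by that much. Among all 7955 genes detected on at least 1 array, the corresponding shares were 3.95% (higher) and 1.81% (lower). The 4 were Ier2, Ier3, Myc and Egr2. Without background correction 3 remained, Ier2, Ier3 and Egr2, beside 1.82% (higher) and 0.541% (lower) of all detected genes. The bright Egr1 and Zfp36 were nearly equal in both pools, Egr3 and Btg2 were close to background, and Ier5 and Nr4a1 were detected on neither array. Folds and log2 ratios are Med1cKO over CON after background correction and quantile normalization, unless a deposited intensity is named. Over the 8 detected genes the median log2 ratio was 1.00, beside -0.04 over all detected genes. It was 0.73 when the genes that only 1 array detected were set to their bound, and 0.46 without background correction. Of these 8 genes, 3 were detected on the Med1cKO array only, so they could pass the filter only by being higher there. With no filter, 10 of 10 genes had a ratio above 0 by their brightest probe, as had 46.5% of all 16593 genes. The 10 include Nr4a1 and Ier5, whose signals were at background on both arrays, so the sign of their ratios carries no information. The second Myc probe, also at background, had a log2 ratio of -0.01. The genes were chosen with earlier results of these data known, and these counts describe them without a test.

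**Figure D1:**
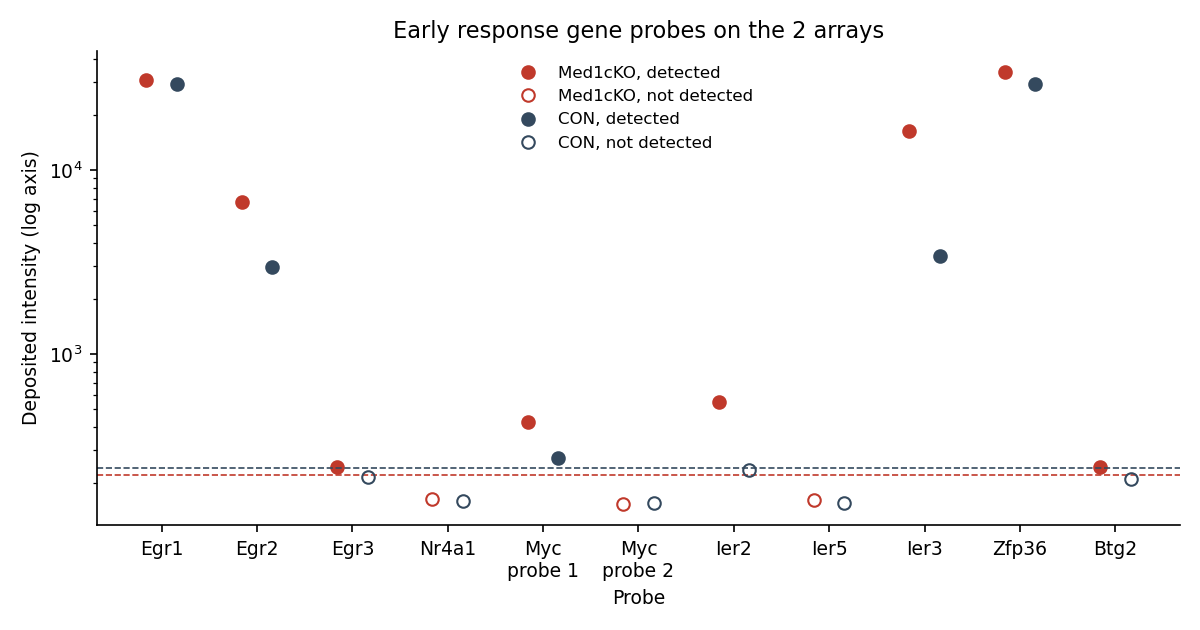
Deposited probe intensity (vertical log axis, arbitrary fluorescence units) of the 11 probes on the Med1cKO array (red) and the CON array (dark blue), 1 array each. Filled points were detected, open points were not, and the dashed lines mark the lowest detected intensity of each array (219 for Med1cKO and 239 for CON). The wide gaps are those of Ier3, Egr2 and Ier2, while Egr1 and Zfp36 lie close together near the top.

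Among the Egr zinc finger factors, Egr2 was past 2-fold and Egr1 and Egr3 were not. Egr1, which growth factors and wounding induce, had an intensity of 30733 in Med1cKO and 29193 in CON, with a log2 ratio of 0.05. Both pools were therefore bright and almost equal for this gene, and both values lay below the highest intensity on their array (43366 in Med1cKO and 44136 in CON). Egr2 (Krox20), known from hindbrain patterning and from myelinating Schwann cells, had an intensity of 6719 in Med1cKO and 2983 in CON. It was 2.35-fold higher after background correction (log2 ratio 1.23), 2.27-fold without it, and 2.30-fold with the authors' normalized values, so its fold hardly depended on the processing. Of 544 other genes detected on both arrays within 1.2-fold of its CON level, 4 had a ratio as high, and 1.10% were at least 2-fold higher. Egr3 had 244.7 in Med1cKO, where 2 negative controls were at least as bright, and 213.4 in CON, where 41 were. It was detected in Med1cKO only, at least 1.16-fold higher, and its measured fold of 1.63 falls to 1.17 without background correction.

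Egr1 and Egr2 recognise closely similar DNA sequences, and their proteins are held in check by the co-repressors Nab1 and Nab2. Of 5 fixed partners and relatives of the Egr factors, 4 were detected, with a median log2 ratio of 0.18. Of the 4, 1 was at least 2-fold higher and 0 lower, beside 3.95% and 1.81% of all detected genes. The 1 was Egr4, the remaining gene of the Egr family and not among the 10, with an intensity of 788 in Med1cKO and 235 in CON, where it was not detected. It was at least 7.73-fold higher, or 3.33-fold as measured without background correction. Nab1 had a log2 ratio of 0.26 by its brightest probe and 0.80, -0.05 and -0.11 by its other detected probes. Nab2 had a log2 ratio of 0.09. Sp1, a GC-box factor whose sites overlap those of the Egr factors, was 1.53-fold lower (log2 ratio -0.61), or 1.22-fold without background correction.

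Known targets of Egr1 were mostly near 0 or slightly higher. Of 11 listed genes, 8 were detected, all on both arrays, with a median log2 ratio of 0.27. Of the 8, 1 was at least 2-fold higher and 0 lower, beside 3.95% and 1.81% of all detected genes. Id3, an inhibitor of bHLH factors that also responds to BMP signals, was the 1 past 2-fold (intensity 1770 in Med1cKO and 705 in CON, 3.09-fold). Icam1, an adhesion receptor for leukocytes, had a log2 ratio of 0.57, Thbs1, which encodes thrombospondin 1, 0.48, and the growth factor chain Pdgfb 0.44, although a dimmer Pdgfb probe was detected on neither array.

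The orphan nuclear receptor Nr4a1 (Nur77) was at background in both pools, with an intensity of 163.4 in Med1cKO and 158.7 in CON. On the Med1cKO array 287 of the 798 negative controls were at least as bright, and on the CON array 473 were, so no fold is given. Its relatives Nr4a2 and Nr4a3 gave a signal. Nr4a2 had 340 in Med1cKO and 253 in CON and was 1.97-fold higher, just under 2-fold. Nr4a3 had 289 in Med1cKO and 210 in CON, was detected in Med1cKO only and was at least 1.69-fold higher. Without background correction Nr4a2 was 1.36-fold and Nr4a3 1.39-fold higher as measured. The further Nr4a3 probes were detected on neither array.

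Myc, a bHLH factor that pairs with Max and promotes growth and ribosome production, was dim but detected in both pools by 1 of its probes. That probe had an intensity of 426 in Med1cKO, where 0 negative controls were as bright, and 272 in CON, where 2 were. It was 2.41-fold higher after background correction, but 1.59-fold without it and 1.65-fold with the authors' normalized values. The second Myc probe stayed at background, with 153.5 in Med1cKO and 155.9 in CON, and gives no independent measure of the difference. Of 490 other genes detected on both arrays within 1.2-fold of the CON level of the brighter probe, 25 (5.10%) had a ratio as high, and 8.16% were at least 2-fold higher.

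Genes around Myc were mostly near 0. Of 12 partners, antagonists and relatives of Myc, 9 were detected, with a median log2 ratio of -0.17. Of the 9, 0 were at least 2-fold higher or lower, beside 3.95% and 1.81% of all detected genes. Max, the obligate partner of Myc, had a log2 ratio of 0.06. Mnt and Mga, repressors that also pair with Max, were detected in CON only and were at least 1.43-fold and 1.36-fold lower after background correction. Without it they were 1.14-fold and 1.13-fold lower as measured, and a second Mnt probe was detected on neither array. Mlx, the partner of the related Mondo factors, had a log2 ratio of 0.41 (0.13 by its second probe), and Mxd4, another Max-binding repressor, -0.19. Of 24 known Myc targets, 22 were detected on both arrays, with a median log2 ratio of 0.14. Of the 22, 1 was at least 2-fold higher and 0 lower, near the 3.95% and 1.81% of all detected genes. That 1 was E2f2, a cell cycle transcription factor, 2.54-fold higher, with a second detected probe at a log2 ratio of 1.15. Without background correction E2f2 was 1.89-fold higher. Nme1, a nucleoside diphosphate kinase, had a log2 ratio of 0.67, the small nucleolar ribonucleoprotein gene Nop56 0.62, and Cad, which starts pyrimidine synthesis, -0.57.

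The Ier genes held the widest differences. Ier3 (IEX-1), which is induced by NF-kB and MAP kinase signals and alters cell survival, had an intensity of 16365 in Med1cKO and 3423 in CON. It was 4.98-fold higher after background correction, 4.78-fold without it and 4.66-fold with the authors' normalized values. Ier3 was bright in both pools, 951 background SDs above the background mean in Med1cKO and 149 in CON, so background had little weight in its ratio. Its log2 ratio of 2.32 was 9.92 times the robust SD of the ratios of genes of similar mean level over both arrays. This is a spread over genes, not over replicates, and the high Med1cKO level of Ier3 itself raised that mean. Genes near its CON level are a different set, whose ratios had 5th and 95th percentiles of -0.59 and 0.45. Of 483 other genes detected on both arrays within 1.2-fold of its CON level, 0 had a ratio as high, and 0.828% were at least 2-fold higher.

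Ier2, a nuclear protein induced by growth factors, had an intensity of 549 in Med1cKO and 234 in CON. No negative control reached it in Med1cKO, while 12 did in CON, where it missed the detection threshold with a p-value of 0.0150. Ier2 was therefore at least 4.86-fold higher, a bound that rests on the background correction. Without that correction it was 2.35-fold higher as measured, and 2.57-fold with the authors' normalized values. Ier5, which shares its amino-terminal domain with Ier2 and acts on the heat shock factor Hsf1, was detected on neither array, at 161.2 in Med1cKO and 155.9 in CON. Ier5l, another gene with this domain and not among the 10, had 1274 in Med1cKO and 419 in CON and was 4.41-fold higher, or 3.08-fold without background correction. In the list of 5 genes drawn up for Nr4a and Ier relatives, all were detected, and the median log2 ratio was 0.98. Besides Nr4a2, Nr4a3 and Ier5l, the list holds Rxra (log2 ratio -0.10) and Ier3ip1, so its median does not describe relatives alone. Ier5l was the 1 at least 2-fold higher and 0 were lower, beside 3.95% and 1.81% of all detected genes. Ier3ip1, which shares only part of its name with Ier3 and encodes a small membrane protein of the endoplasmic reticulum, had a log2 ratio of -0.24.

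**Figure D2:**
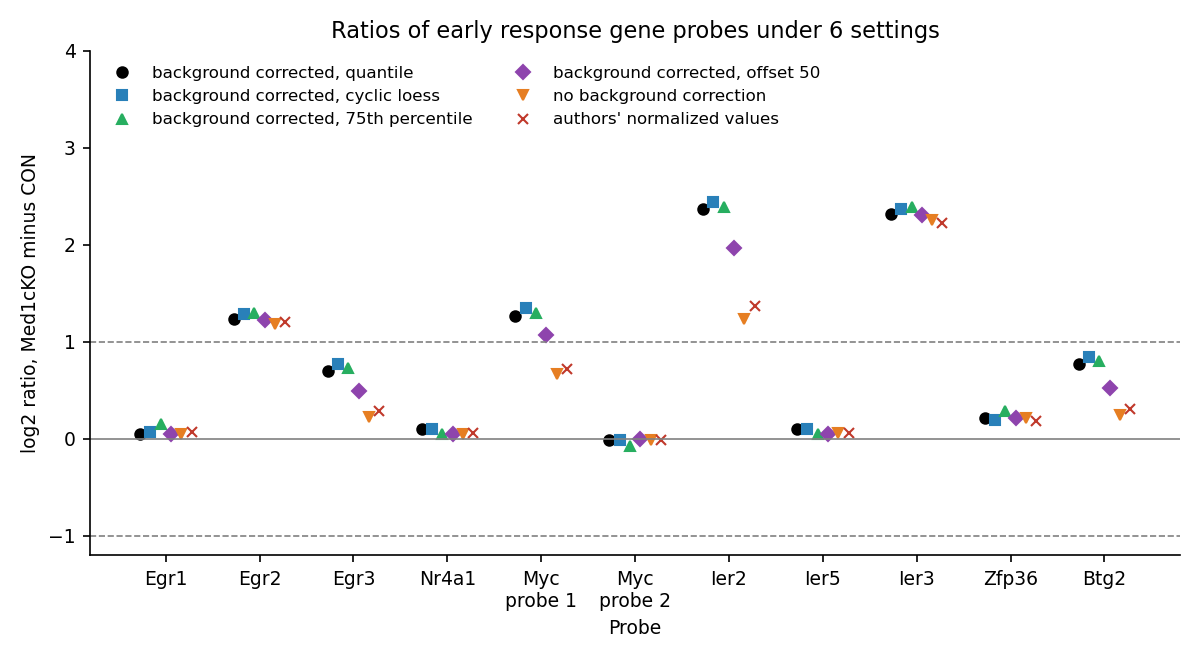
Log2 ratio, Med1cKO minus CON, of each of the 11 probes (horizontal axis) under 6 settings, with 1 point per setting and dashed lines at 2-fold. The points of Ier3 and Egr2 stay together between 2.22 and 2.39 and between 1.19 and 1.30, while those of Myc and Ier2 spread down to 0.67 and 1.23 where background is left in.

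Zfp36 and Btg2 act after transcription, and neither was shown to differ by 2-fold. Zfp36 (tristetraprolin) binds AU-rich elements in cytokine and early response transcripts and recruits the deadenylase that starts their decay. Its intensity was 33981 in Med1cKO and 29521 in CON, with a log2 ratio of 0.22, which is 0.94 times the robust SD of the brightest level bin. Of 42 other genes detected on both arrays within 1.2-fold of its CON level, 0 were at least 2-fold higher and 1 had a ratio as high, while for Egr1 12 of 42 had one. Btg2, an antiproliferative protein that binds the same deadenylase complex and is induced by p53, had 242.3 in Med1cKO, where 2 negative controls were at least as bright, and 208.7 in CON, where 54 were. It was detected in Med1cKO only and was at least 1.13-fold higher, with a measured fold of 1.70, or 1.18 without background correction.

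Of 13 relatives of Zfp36 and Btg2 and deadenylation genes, 9 were detected, with a median log2 ratio of 0.26. Of the 9, 1 was at least 2-fold higher and 0 lower, beside 3.95% and 1.81% of all detected genes. Tob2, an antiproliferative protein of the Btg/Tob family, had an intensity of 1370 in Med1cKO and 478 in CON and was 3.95-fold higher (2.94-fold without background correction). Its relative Tob1 had 3814 in Med1cKO and 2287 in CON, a log2 ratio of 0.84. Btg3 was at least 1.46-fold higher and detected in Med1cKO only, or 1.36-fold higher as measured without background correction. Pabpc1, the cytoplasmic poly(A) binding protein, had a log2 ratio of 0.34 by its brightest probe and 0.03 and -0.30 by its dimmer ones.

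Tristetraprolin is known to destabilise the transcripts of several cytokines and growth factors. Of 11 listed genes, 6 were detected, 2 of them in Med1cKO only, and 3 were at least 2-fold higher with 0 lower, beside 3.95% and 1.81% of all detected genes. Without background correction 2 of the 6 were, beside 1.82% of all. The median log2 ratio was 1.19, or 0.59 with bounds in place of the ratios of genes that 1 array detected. Tnf, the inflammatory cytokine, had an intensity of 562 in Med1cKO and 185 in CON, where it was not detected, and was at least 5.004-fold higher. The neutrophil chemokine Cxcl1 had 3098 in Med1cKO and 839 in CON, 4.51-fold higher, and the angiogenic factor Vegfa 2126 in Med1cKO and 1130 in CON, 2.13-fold higher, with a second detected probe at a log2 ratio of 1.73. Without background correction Tnf was 2.98-fold, Cxcl1 3.81-fold and Vegfa 1.96-fold higher. Pim1, a survival kinase, had a log2 ratio of -0.64 by its brightest probe and 2.18 by another, detected in Med1cKO only, so its probes disagreed in direction. The detected immune cell markers were also higher in this pool, while Cd8a, Ptprc, Tyrobp and Itgam were detected on neither array. Without background correction, 1 T cell marker and 0 Langerhans cell and myeloid markers were at least 2-fold higher. The part of immune cells in the cytokine values was not tested.

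Transcripts of the path that signals to these genes were mostly near 0, with Mrtfb as an exception in its measured values. Of 16 genes for Srf, its cofactors and the MAP kinase cascade, 11 had a probe and 9 were detected, with a median log2 ratio of 0.07. Of the 9, 0 were at least 2-fold higher or lower, beside 3.95% and 1.81% of all detected genes. Srf had an intensity of 3758 in Med1cKO and 3219 in CON, a log2 ratio of 0.29, and the kinase genes Rps6ka3 and Map2k1 had 0.34 and 0.16. Mrtfb, an actin-regulated Srf cofactor that only the CON array detected, was at least 1.46-fold lower, or 1.32-fold as measured without background correction. Its measured log2 ratio was -1.26, with intensities of 187.8 in Med1cKO and 261.6 in CON, and a second probe detected in CON only had -1.15. Array levels give no measure of kinase activity.

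**Figure D3:**
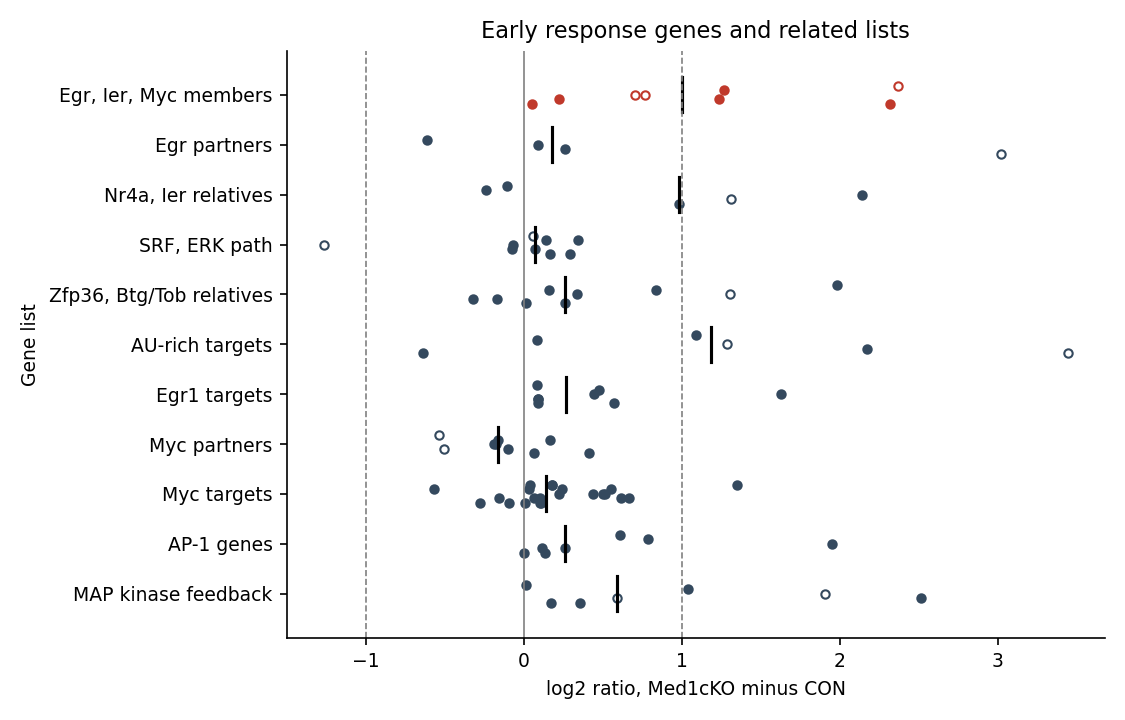
Log2 ratio, Med1cKO minus CON (horizontal axis), of the detected early response genes (red, top) and of the detected genes of related lists (dark blue), with a black bar at each median and dashed lines at 2-fold. Filled points were detected on both arrays, open points on 1. The median of the early response genes is 1.00, or 0.73 with the 3 genes that only the Med1cKO array detected set to their bounds. That of Myc targets, whose 22 detected genes were detected on both arrays, is 0.14 and that of the SRF and ERK path 0.07.

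The related AP-1 and MAP kinase feedback lists are described by their counts, beside 3.95% of all detected genes at least 2-fold higher and 1.81% lower. Of 7 AP-1 genes, which encode the Fos, Jun and Atf families, all were detected on both arrays, 1 was at least 2-fold higher and 0 lower, with a median log2 ratio of 0.26. Of 10 MAP kinase feedback genes with a probe, 7 were detected, 2 were at least 2-fold higher and 0 lower, with a median of 0.59. The difference between these lists and the 10 genes was not tested.

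**Figure D4:**
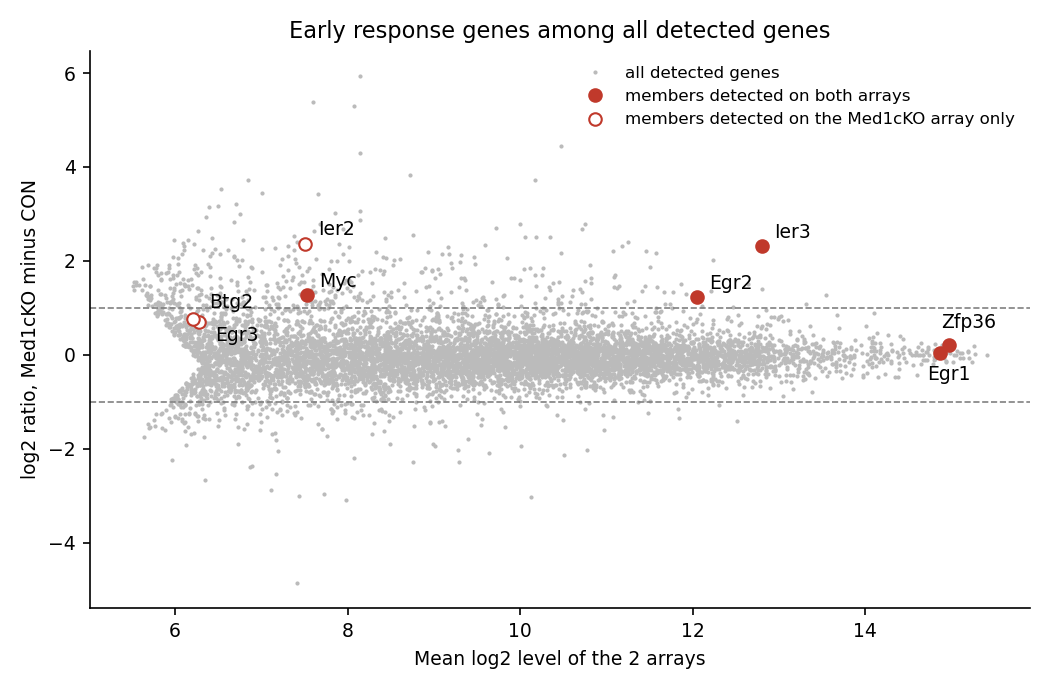
Log2 ratio, Med1cKO minus CON (vertical axis), against the mean log2 level of both arrays (horizontal axis) for 7955 detected genes (grey), with the 8 detected early response genes in red, filled where both arrays detected them. Dashed lines mark 2-fold. Ier3 and Egr2 lie at high levels, and Ier2 and Myc at low levels where the grey band is wider. In that order, their ratios are 9.92, 4.25, 4.66 and 2.497 times the robust SD of their bins of mean level, which their own Med1cKO levels helped to set. Egr1 and Zfp36 lie within the band at the bright end.

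Of the 4 genes past 2-fold, Ier3 and Egr2 had folds that differed little between the 6 settings plotted, and they lay where genes of similar level varied little. In the level bin of Egr2 the ratios had a robust SD of 0.29 and in that of Ier3, Egr1 and Zfp36 one of 0.23, against 0.51 in that of Myc and Ier2 and 0.97 in that of Egr3 and Btg2. Egr2 had a ratio 4.25 times the SD of its bin, Ier2 4.66 times and Myc 2.497 times, while Egr3 and Btg2 had 0.73 and 0.80 times. Of all 7955 detected genes, 0.541% had a ratio at least as high as that of Ier2, 0.616% as that of Ier3, 3.81% as that of Myc and 4.14% as that of Egr2. For Egr1 the share was 40.8% and for Zfp36 26.2%. These multiples and shares use measured ratios, also for Ier2, Egr3 and Btg2, which were not detected in CON. The bins follow the mean level of both arrays. A high Med1cKO level therefore moves a gene toward brighter bins with smaller SDs and can raise its own multiple. This holds for Ier2, whose CON level was below detection, so its 4.66 is not an independent measure of its difference. The log2 ratio of Ier2 was 2.37, and 1.23 without background correction, so its place beside Ier3 depends on that correction.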

How the data were processed

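Each pool of 3 mice was hybridized to 1 array, with groups read from the titles. Per the file headers, the deposited intensity values are not normalized, and they are linear and hold the background. Each comes with a detection p-value, per the file headers. The submitters' processing notes name GenomeStudio 2011.1. The authors' normalized intensity values, on a linear scale with medians of 199 (Med1cKO) and 198 (CON), follow the rank order and direction of their own arrays. They are uncentred, and no source used here gives their method.

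Intensities were background-corrected, quantile-normalized and log2-transformed with neqc of limma 3.58.1 (R 4.3.3, offset 16), which infers background from the detection p-values (mean 163.0 and SD 17.0 for Med1cKO, 168.0 and 21.9 for CON). Later steps used Python 3.11.15. The pipeline was tested on simulated data with known folds. These folds were placed only on probes well above background in CON. Dim genes such as Ier2, Myc, Egr3 and Btg2 lay below that level in CON, so the test does not cover their folds. Symbols came from the platform annotation (23978 probes with 1 symbol, 0 with several, 1719 with none), and 23962 matched RefSeq (GRCm38.p6) by Entrez ID without a change. The brightest probe represented a gene. Where 1 array detected it, its value on the other array was set no lower than the lowest level of any detected probe there, and the fold is written as at least N-fold. Such a bound carries no measurement error and is not a limit on the true difference. It holds for background-corrected values, and measured folds without that correction can be smaller. Robust SDs came from 10 bins of detected genes, set by the mean level of both arrays.

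Named were every probe of the 10 genes, Med1, and of each related list up to 4 detected genes with the largest absolute ratios plus those past 2-fold. The members and lists were chosen with earlier results of these data known. AP-1 and MAP kinase feedback lists were added after the values were seen. With 1 array per group the number of arrays limits the precision, and no p-value is given for any difference.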

Additional observations from a re-analysis of the deposited data

How the results depend on the processing

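Under the 9 alternatives, 3 or 4 of the early response genes were higher by 2-fold or more and 0 lower by that much. The median log2 ratio ranged from 0.46 without background correction to 1.23 over genes detected on both arrays only. Myc fell below 2-fold without background correction (log2 ratio 0.67) and with the authors' normalized values (0.72), and Ier2 moved by over 1.5 times in the same settings, to 1.23 and 1.36. The other 51 values of single probes moved by less than 1.5 times and kept their side of 2-fold. Over all detected genes, the share at least 2-fold higher was 1.82% without background correction and 2.05% with the authors' values, with 0.541% and 0.578% lower. Leaving out a replicate was not possible with 1 array per group. No paired analysis was possible because each group has 1 array. Signal over background limits Egr3, Btg2, Ier2 and Myc in CON, and Ier5, Nr4a1 and the second Myc probe in both pools.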
